A study of Mus musculus with 816 samples.

Results

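Cxcl9, Cxcl10 and Cxcl11 encode the chemokines that bind CXCR3, a receptor carried by activated T cells and NK cells. These 3 genes were chosen by name, with earlier results of these data known. They were among 45581 genes listed for cultured mouse microglia and 29858 listed for microglia isolated from mice. Expression was read by 3′-end RNA sequencing in 784 cultures and 32 mice. The cultures were primary microglia from neonatal mouse brain, bought frozen, plated in multi-well plates and stimulated 4 days later with 1 of 66 agents or combinations (untreated included) for 4, 24 or 72 h, which gave 98 conditions. The stimuli compared here were IFNa at 0.0008 µg/µl, IFNb and IFNg at 0.0001 µg/µl each, IC (poly(I:C), a synthetic double-stranded RNA) at 0.2 µg/µl, LPS_hi at 0.0001 µg/µl, LPS_lo at 0.00001 µg/µl and P3C, a lipopeptide ligand of TLR1/2, at 0.001 µg/µl. Agents added to LPS, or combined with TNFa (0.000004 µg/µl), were, with their labelled doses when given alone, IL4, IL10, IL13 and eotaxin (0.00005 µg/µl each), TGFb and CCL2 (0.0001 µg/µl each), PGE2 (0.001 µg/µl), ATP and nicotine (1000 µM each), GABA (100 µM), resveratrol (50 µM), minocycline (20 µM), norepinephrine (1 µM), rapamycin (5 nM) and estradiol (1 nM). CCL7 (0.0001 µg/µl) was given alone. The labels of combinations give a single dose, so the dose of the added agent in them is not given here. Untreated cultures numbered 40 at 24 h and 25 at 72 h, and none was labelled 4 h. The mice were C57BL/6. In the LPS experiment 4 females of 2 months received PBS and 4 received LPS at 2 mg/kg into the abdomen, all taken at 4 h, and in the aging experiment 11 naive males of 2 months were set against 13 of 22 months. Cells from mice were enriched with magnetic beads against CD11b, a surface protein that monocytes and neutrophils also carry.

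In textbook accounts the 3 ligands are released by macrophages, microglia, endothelial cells and other cells when interferon is sensed, and they draw CXCR3-bearing lymphocytes into inflamed tissue. Interferon gamma acts through factors that bind GAS elements, type I interferons (IFNa, IFNb) through factors that bind ISRE elements, and LPS and double-stranded RNA act first through NF-kB and IRF3 and then through the interferon beta that the cells release. CXCL9 is known mainly as an interferon gamma target, while CXCL10 and CXCL11 respond to both interferon classes.

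The genes sit side by side on the minus strand of mouse chromosome 5 (GRCm38). Cxcl9 (ENSMUSG00000029417) spans chr5:92321347-92328079, Cxcl10 (ENSMUSG00000034855) chr5:92346638-92348889 and Cxcl11 (ENSMUSG00000060183) chr5:92359544-92365485. Cxcl11 is annotated as a polymorphic pseudogene, that is, a gene whose reading frame is broken in the reference strain and intact in others, so its RNA need not stand for a protein. Art3, an ADP-ribosyltransferase gene on the plus strand, spans chr5:92331827-92414628 and covers both Cxcl10 and Cxcl11. The sources used here do not state whether the counting used strand, so reads of Art3 and of these genes may be mixed where they overlap.

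The 250 bases before the annotated start were taken from RefSeq (GRCm38.p6) for Cxcl9 and Cxcl10, because the stimuli act through factors whose motifs can be searched there. They are written 5′ to 3′ along the gene's own strand, with matches in capitals, at chr5:92328080-92328329 (minus) for Cxcl9 and chr5:92348890-92349139 (minus) for Cxcl10.
Cxcl9: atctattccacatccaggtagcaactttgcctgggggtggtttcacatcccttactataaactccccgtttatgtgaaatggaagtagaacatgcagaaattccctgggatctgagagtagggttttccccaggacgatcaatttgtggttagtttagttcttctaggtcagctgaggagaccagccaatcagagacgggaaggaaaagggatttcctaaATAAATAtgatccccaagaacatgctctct
Cxcl10: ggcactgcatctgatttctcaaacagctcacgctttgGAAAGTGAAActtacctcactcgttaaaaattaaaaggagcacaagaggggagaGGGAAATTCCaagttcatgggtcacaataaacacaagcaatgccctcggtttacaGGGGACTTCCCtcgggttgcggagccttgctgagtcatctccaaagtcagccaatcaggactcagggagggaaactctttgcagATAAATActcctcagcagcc
Both strands were searched for the GAS element (TTCNNNGAA), the ISRE core (GAAA, any 2 bases, GAAA), the kappa-B element by its usual consensus and the TATA-like ATAAATA. In Cxcl10 the ISRE core lay 213 to 204 bases before the start, kappa-B matches lay at 159 to 150, 104 to 95 and 103 to 94, the last 2 overlapping, and ATAAATA lay at 20 to 14. In Cxcl9 only ATAAATA matched, at 30 to 24. Of 32851 promoter windows of this length, 2.98% held the ISRE core, 7.25% kappa-B, 7.02% GAS and 5.17% ATAAATA. A match is a description of letters, and the lack of one says only that these letters are not in this window.

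Values are CPM, the reads of a gene scaled to the same total of mapped reads in every sample. A fold change is a difference of group means of log2(CPM + 1), and a gene is called changed when limma gave an adjusted p under 0.05 over the 16942 culture genes tested (9012 in the LPS mice) and the difference reached 1 on the log2 scale. Over 5 CPM stood Cxcl9 in 376, Cxcl10 in 386 and Cxcl11 in 171 of the 784 cultures, and all 3 genes passed the filter on low values. The depth implied by the smallest step between values was 1.00 to 38.2 M reads in cultures (median 4.67) and 2.36 to 7.78 M in mice (median 4.08). Genes that every cell uses, such as Actb, Gapdh and Rpl13a, were above 0 in every culture, so a gene listed at 0 had no assigned read at that depth. Of the microglial markers, Tmem119, P2ry12 and Sall1 had medians of 6.94, 2.13 and 0.479 CPM in cultures against 4643, 555 and 189 CPM in mice. The summed level of 10 such markers in untreated cultures at 24 h was 4430 to 10822 CPM (median 7242) and in LPS_hi cultures 1808 to 4345 CPM (median 2570). That of T and NK cell markers had a median of 0 CPM in both. In bulk samples fewer cells of a type and less RNA per cell cannot be told apart. Cultures came from 3 lots of cells (lots A, B and C), 10 plates and 21 library pools. At 24 h the groups held different lots and all 72 h cultures were of lot C, so values within lots or plates stand beside the results. Nothing in the labels ties cultures to separate animals, so p-values measure only the spread between wells, which may be technical.

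All 3 genes rose at 24 h under IFNa, IFNb, IFNg, IC, LPS_hi and LPS_lo, and none was called under P3C. The member with the largest log2 fold change was Cxcl9 under IFNg, Cxcl10 under IFNb and LPS_hi, and Cxcl11 under IC. This held over all, in each lot and with the plate as a term, but not on every single plate. Under IFNa the largest was Cxcl10 over all and in lot C and Cxcl11 in lot A. Under LPS_lo it was Cxcl9 over all and Cxcl10 in lots A and C. The untreated cultures lay at 0.187 to 19.2 CPM for Cxcl9 (median 4.83), 0 to 76.9 CPM for Cxcl10 (median 4.83) and 0 to 8.19 CPM for Cxcl11 (median 1.35). Untreated Cxcl10 split by plate. In lot A it lay at 0 to 6.47 CPM on 1 plate (the low plate) and at 32.6 to 76.9 CPM on the other (the high plate). In lot B it lay at 15.7 to 24.3 CPM on 1 plate (the high plate) and at 0 to 5.32 CPM on the rest. Fold changes within a lot used untreated cultures of all its plates. On the high plate of lot B, 2 LPS_hi cultures averaged 6.61, 8.85 and 6.73 in log2(CPM + 1), against 0.88, 4.36 and 1.62 untreated. The background share of all genes called higher was 3.22% under IFNa, 3.46% under IFNb, 4.40% under IFNg, 2.89% under IC, 5.25% under LPS_hi, 4.15% under LPS_lo and 3.22% under P3C.

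**Figure D1:**
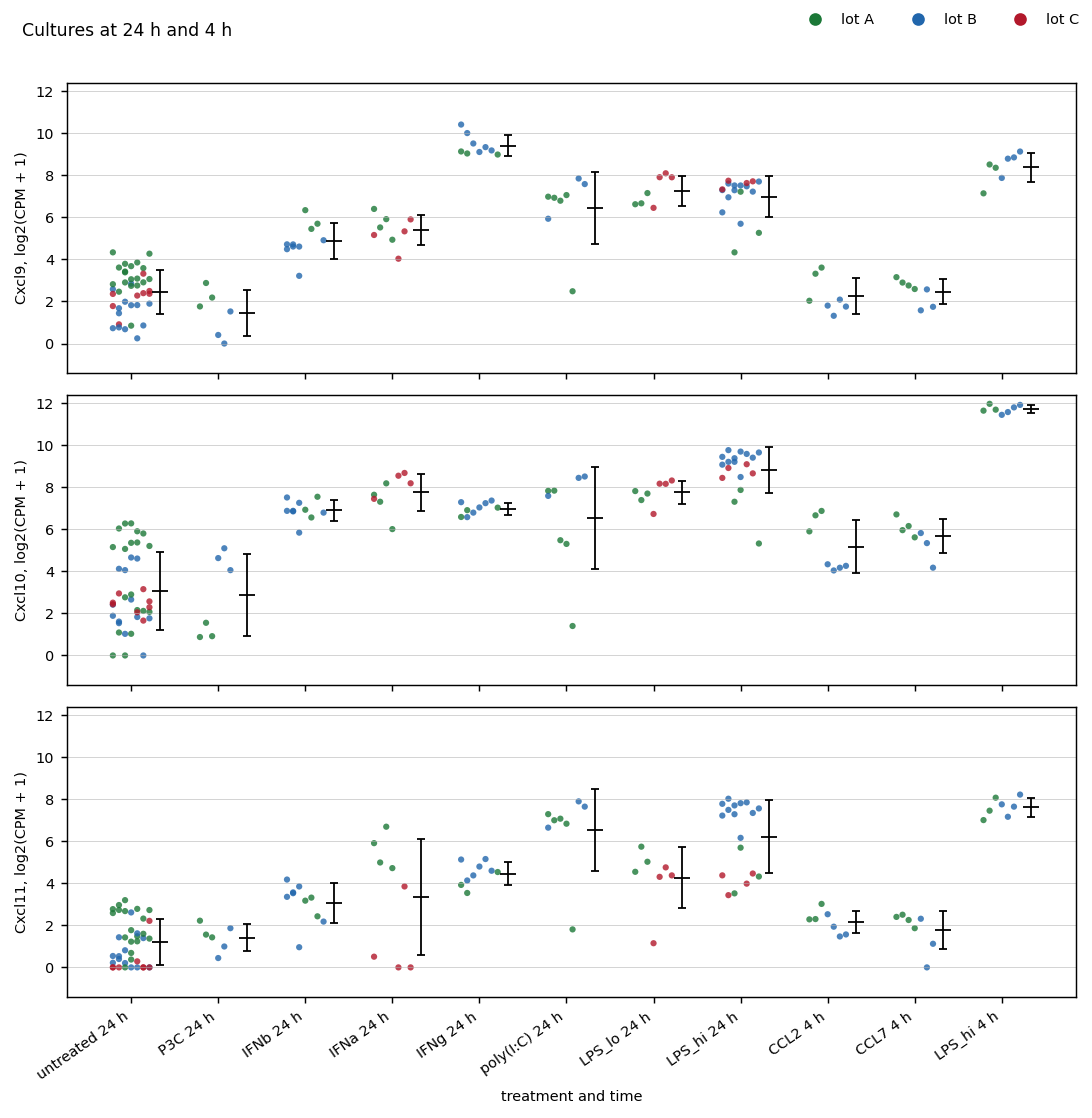
Each point is a culture, plotted as log2(CPM + 1) of Cxcl9, Cxcl10 and Cxcl11 by condition at 24 h and 4 h, coloured by cell lot, with a black tick and bar for the mean ± SD of each group. IFNg cultures hold the highest Cxcl9 at 24 h (509 to 1369 CPM), LPS_hi cultures at 4 h hold the highest Cxcl10 (2796 to 4021 CPM), and P3C cultures lie among the untreated ones.

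Under IFNg the 9 cultures lay at 509 to 1369 CPM for Cxcl9 (median 582), the gene best known as an interferon gamma target. Every one lay above every untreated culture, and the log2 fold change was 6.97 (SE 0.41, adjusted p = 1.4e-52). Cxcl10 lay at 94.8 to 165 CPM (median 130) and rose by 3.92 (SE 0.43, adjusted p = 1.3e-16), again with no overlap. Cxcl11 lay at 10.6 to 34.7 CPM (median 22.2) and rose by 3.26 (SE 0.36, adjusted p = 2.6e-16), also above every untreated culture. Within lot A the 3 log2 fold changes were 5.87, 3.13 and 2.11, and within lot B they were 8.11, 4.58 and 3.95.

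The type I interferons raised all 3 members. Under IFNa the 8 cultures lay at 63.6 to 410 CPM for Cxcl10 (median 245), 7 of them above the highest untreated culture, a log2 fold change of 4.69 (SE 0.45, adjusted p = 4.1e-21), with 3.57 in lot A and 5.77 in lot C. The lot A cultures were all of its high plate, with a mean log2(CPM + 1) of 7.29 against 5.65 untreated there. Under IFNb the 10 cultures lay at 56.5 to 187 CPM (median 117), 9 of them above the highest untreated culture, and Cxcl10 rose by 3.85 (SE 0.41, adjusted p = 2.3e-17). Both groups overlapped the untreated range only at their lowest cultures. Cxcl9 lay at 15.4 to 83.7 CPM under IFNa (median 42.2) and at 8.32 to 80.4 CPM under IFNb (median 25.3). Its log2 fold changes were 2.96 (SE 0.43, adjusted p = 7.6e-10) and 2.43 (SE 0.39, adjusted p = 3.8e-08), with 7 of 8 and 9 of 10 cultures above the highest untreated one. Cxcl11 lay at 0 to 103 CPM under IFNa (median 19.4) and 0.946 to 17.1 CPM under IFNb (median 9.12), with log2 fold changes of 2.13 (SE 0.38, adjusted p = 1.5e-06) and 1.85 (SE 0.35, adjusted p = 5.2e-06). The Cxcl11 calls did not hold in every lot. Under IFNa the 4 lot A cultures lay at 25.4 to 103 CPM and the 4 lot C cultures at 0 to 13.4 CPM, and the log2 fold change was 3.69 in lot A and 0.78 in lot C (adjusted p = 0.58). Under IFNb it was 1.08 in lot A (adjusted p = 0.27) and 2.34 in lot B.

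IC, which is sensed by TLR3 in endosomes and by MDA5 in the cytosol, gave its largest log2 fold change in Cxcl11. The 8 cultures lay at 2.50 to 238 CPM for Cxcl11 (median 131), 7 of them above every untreated culture, a log2 fold change of 5.32 (SE 0.38, adjusted p = 1.1e-35). Cxcl9 lay at 4.61 to 230 CPM (median 124) and rose by 4.01 (SE 0.43, adjusted p = 1.4e-17). Cxcl10 lay at 1.64 to 365 CPM (median 210) and rose by 3.49 (SE 0.45, adjusted p = 4.8e-12), with 5 of 8 cultures above the untreated range. For Cxcl9, Cxcl10 and Cxcl11 the log2 fold changes were 2.86, 1.86 and 4.11 within lot A and 5.64, 5.71 and 6.65 within lot B. All IC cultures of lot A were of its low plate, with a mean log2(CPM + 1) of Cxcl10 of 5.57 against 1.57 untreated there. Those of lot B were of its high plate, at 8.19 against 4.36 untreated there. The lowest value of each gene came from 1 culture, replicate 5, whose profile was least like the other IC cultures. Without it the log2 fold changes were 4.57, 4.23 and 6.0 for Cxcl9, Cxcl10 and Cxcl11. In lot A the Cxcl10 values also split by library pool, at 227 and 229 CPM in one and at 43.7, 38.6 and 1.64 CPM in the other.

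LPS acts through TLR4 and its co-receptor CD14. Under LPS_hi the 18 cultures lay at 19.2 to 214 CPM for Cxcl9 (median 159), 39.2 to 872 CPM for Cxcl10 (median 570) and 9.83 to 260 CPM for Cxcl11 (median 152). All lay above the untreated range for Cxcl9 and Cxcl11, and 17 of 18 did for Cxcl10. The log2 fold changes were 4.54 (SE 0.31, adjusted p = 5.7e-40) for Cxcl9, 5.75 (SE 0.33, adjusted p = 1.1e-53) for Cxcl10 and 5.02 (SE 0.28, adjusted p = 3e-57) for Cxcl11. The lots differed in size of response, with 2.42, 3.12 and 2.62 in lot A, 5.65, 6.88 and 6.73 in lot B, and 5.37, 6.33 and 3.75 in lot C. Under LPS_lo the 7 cultures lay at 86.8 to 274 CPM for Cxcl9 (median 142), 105 to 320 CPM for Cxcl10 (median 225) and 1.22 to 52.6 CPM for Cxcl11 (median 22.4). They rose by 4.81 (SE 0.45, adjusted p = 2e-22), 4.70 (SE 0.48, adjusted p = 3.7e-19) and 3.07 (SE 0.40, adjusted p = 4.7e-12), and only for Cxcl11 did 1 of 7 cultures lie inside the untreated range. Within lot A the changes were 3.63, 3.92 and 3.21, and within lot C 5.35, 5.40 and 3.34. The lot A LPS_lo cultures were all of its high plate. Their means of log2(CPM + 1) were 6.82, 7.64 and 5.11, against 3.30, 5.65 and 2.03 untreated there.

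P3C cultures, 6 in number, lay at 0 to 6.37 CPM for Cxcl9, 0.836 to 33.3 CPM for Cxcl10 and 0.361 to 3.67 CPM for Cxcl11, all inside the untreated range except 1 Cxcl9 value listed at 0. The log2 fold changes were -0.99 (adjusted p = 0.13), -0.20 (adjusted p = 0.85) and 0.21 (adjusted p = 0.80), although P3C moved 20.1% of all genes past the call. Set against all untreated cultures of a lot, Cxcl10 took opposite directions in lots A and B. In lot A the P3C cultures lay at 0.836 to 1.94 CPM against an untreated median of 32.6 CPM, a log2 fold change of -2.60 (adjusted p = 0.0036), and in lot B at 15.7 to 33.3 CPM against 2.70 CPM, a change of 2.12 (adjusted p = 5.5e-05). The difference between lots was not tested. All P3C cultures of lot A were of its low plate, where untreated cultures lay at 0 to 6.47 CPM. Those of lot B were of its high plate, where untreated cultures lay at 15.7 to 24.3 CPM. With the plate as a term the change of Cxcl10 was 0.20 (adjusted p = 0.83).

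**Figure D2:**
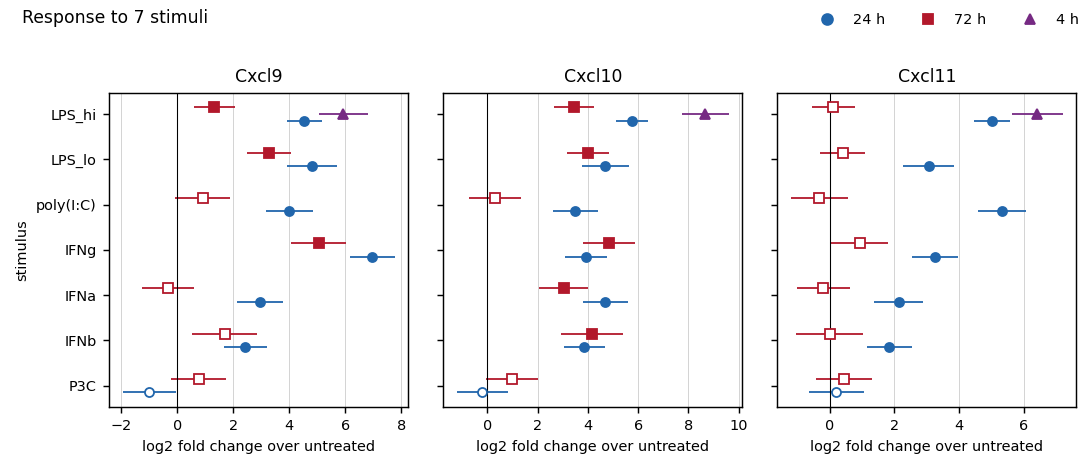
Log2 fold change of Cxcl9, Cxcl10 and Cxcl11 against untreated cultures for each stimulus at 4, 24 and 72 h, with bars for the 95% confidence interval and filled points for called changes. The tallest 24 h point is Cxcl9 under IFNg (6.97), IC peaks at Cxcl11 (5.32), and at 72 h no Cxcl11 point is filled.

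Set directly against each other at 24 h, the stimuli differed most in Cxcl9 and Cxcl11. IFNg exceeded IFNa in Cxcl9 by 4.02 (SE 0.53, adjusted p = 4.8e-11) and IFNb by 4.54 (SE 0.51, adjusted p = 1.4e-15) on the log2 scale, with no overlap, against background shares of 5.52% and 2.31% of genes called higher. Within lots the same order held, with IFNg at 509 to 563 CPM and IFNb at 42.9 to 80.4 CPM in lot A, and 553 to 1369 against 8.32 to 29.2 CPM in lot B. Cxcl10 did not separate the interferon classes. The difference of IFNg from IFNa was -0.77 (95% interval -1.89 to 0.35, adjusted p = 0.49) and from IFNb 0.08 (95% interval -0.98 to 1.13). Cxcl11 was higher under IFNg than under IFNb by 1.41 (adjusted p = 0.039), a call lost without the filter on low values (adjusted p = 0.055) and with median-centred values (adjusted p = 0.068), and not called against IFNa (1.13, adjusted p = 0.13). IFNa and IFNb, given at different doses, did not pass the test for any member, with differences of 0.52 (95% interval -0.50 to 1.55), 0.85 (-0.24 to 1.94) and 0.28 (-0.63 to 1.19).

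IC differed from the interferons in Cxcl11. It exceeded IFNb by 3.47 (SE 0.47, adjusted p = 4e-10, background 0.525% of genes called higher) and IFNg by 2.06 (SE 0.48, adjusted p = 0.00082, background 1.37%). Within lot B the IC cultures lay at 99.4 to 238 CPM against 16.6 to 34.7 CPM under IFNg, and in lot A 4 of 5 lay above the IFNg cultures. Cxcl9 was lower under IC than under IFNg by 2.96 on the log2 scale, written as a difference of -2.96 (SE 0.53, adjusted p = 4.6e-06, background 4.23% called lower), with no overlap. Cxcl10 under IC passed neither test, at -0.36 against IFNb and -0.43 (95% interval -1.55 to 0.68) against IFNg.

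LPS_hi and IFNg gave opposite orders of Cxcl9 and Cxcl10. Against IFNg, LPS_hi was lower in Cxcl9 (-2.43, SE 0.45, adjusted p = 3.3e-06, background 5.87% called lower), with all 18 cultures under the lowest IFNg culture. It was higher in Cxcl10 (1.83, SE 0.48, adjusted p = 0.0024, background 2.97% called higher) and in Cxcl11 (1.76, SE 0.40, adjusted p = 0.0003). The last 2 differences came with lot B, where LPS_hi lay at 359 to 872 CPM and IFNg at 94.8 to 165 CPM for Cxcl10, and at 70.7 to 260 against 16.6 to 34.7 CPM for Cxcl11. In lot A the LPS_hi cultures lay at 39.2 to 234 and 10.5 to 50.8 CPM and overlapped IFNg cultures at 95.3 to 130 and 10.6 to 22.2 CPM. Against IC, LPS_hi was higher in Cxcl10 (2.26, adjusted p = 0.00042, background 2.34%), a call lost without IC replicate 5 (1.52, adjusted p = 0.054). It did not pass the test in Cxcl9 (0.54, 95% interval -0.38 to 1.45) or Cxcl11 (-0.30, 95% interval -1.12 to 0.52). Against IFNb it was higher over all lots in all 3 genes, by 2.11, 1.90 and 3.17 (adjusted p = 4.1e-05, 0.00084 and 1.4e-13, background 3.19%). In lot A the means of log2(CPM + 1) were 5.61, 6.84 and 4.51 under LPS_hi and 5.83, 7.02 and 2.98 under IFNb. Only Cxcl11 stood higher under LPS_hi there. In lot B they were 7.14, 9.36 and 7.48 against 4.47, 6.86 and 3.09, and IFNb had no lot C cultures. Against P3C LPS_hi was higher by 5.53, 5.95 and 4.81 with no overlap (background 7.14%).

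The 2 LPS doses were compared as well. LPS_hi exceeded LPS_lo in Cxcl11 by 1.95 (adjusted p = 0.0049, background 0.248% called higher). With the plate as a term it was 1.85 (adjusted p = 0.0027) and with the pool 1.84, while on these groups alone the call was lost (adjusted p = 0.51). The 11 LPS_hi cultures of lot B, at 70.7 to 260 CPM, had no LPS_lo counterpart. In lot A LPS_hi lay at 10.5 to 50.8 CPM and LPS_lo at 22.4 to 52.6 CPM, and in lot C at 9.83 to 21.1 and 1.22 to 26.1 CPM, so the doses overlapped within both shared lots. Cxcl9 differed by -0.27 (95% interval -1.23 to 0.69) and Cxcl10 by 1.05 (adjusted p = 0.85), the latter called only with the plate (1.90, adjusted p = 0.0057) or pool (2.13) as a term.

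After 4 h of LPS_hi Cxcl10 and Cxcl11 stood higher than in any other condition, and Cxcl9 stood at place 4 of 97 conditions. The 7 cultures lay at 2796 to 4021 CPM for Cxcl10 (median 3318), 141 to 562 CPM for Cxcl9 (median 366) and 128 to 298 CPM for Cxcl11 (median 200). None overlapped the untreated cultures of 24 h, and the log2 fold changes were 8.66 (SE 0.48, adjusted p = 3.3e-57), 5.94 (SE 0.45, adjusted p = 3e-33) and 6.41 (SE 0.40, adjusted p = 1.9e-46), against a background of 5.45% called higher. Time and treatment differ together in that comparison. Cultures given CCL2 or CCL7 for 4 h offered a reference of the same age, with Cxcl10 medians of 19.2 and 55.7 CPM. Against both, LPS_hi was higher by 6.29 in Cxcl10, 6.01 in Cxcl9 and 5.65 in Cxcl11 (adjusted p = 2.8e-26, 4.4e-27 and 1.0e-29, background 5.21%). By 24 h of LPS_hi Cxcl10 was lower than at 4 h in all 18 cultures, a difference of -2.91 (SE 0.52, adjusted p = 1.5e-06, background 3.71% called lower). Over the alternatives the difference was -3.10 to -1.62 and the call was kept. On the high plate of lot A Cxcl10 lay at 158 to 234 CPM at 24 h (2 cultures) against 3210 to 4021 CPM at 4 h. On that of lot B it lay at 359 to 593 CPM (2 cultures) against 2796 to 3882 CPM. Cxcl9 (-1.39, adjusted p = 0.031) and Cxcl11 (-1.39, adjusted p = 0.013) overlapped between the times. Without the filter on low values the Cxcl9 call was lost (adjusted p = 0.054), and with the plate as a term the Cxcl11 call was (-0.74, adjusted p = 0.22).

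The ratio of members within a culture put the same values another way. The mean log2 ratio of Cxcl9 to Cxcl10 at 24 h was 2.43 ± 0.56 (SD, n = 9) under IFNg and below 0 under IFNa (-2.35 ± 1.13, n = 8), IFNb (-2.03 ± 0.71, n = 10) and LPS_hi (-1.82 ± 0.78, n = 18). The ratio of Cxcl11 to Cxcl10 was -0.03 ± 1.07 (SD, n = 8) under IC and between -4.42 and -2.52 under the other 5 stimuli. Levels of different genes were not corrected for length or capture, so only the shift of a ratio between stimuli can be read.

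At 72 h fewer calls remained, and none for Cxcl11. Cxcl10 rose under IFNa, IFNb, IFNg, LPS_hi and LPS_lo, Cxcl9 rose under IFNg, LPS_hi and LPS_lo, and neither was called under IC or P3C. Untreated cultures lay at 0 to 15.3 CPM for Cxcl9 (median 0.395), 0 to 28.1 CPM for Cxcl10 (median 0.182) and 0 to 4.13 CPM for Cxcl11 (median 0). Of these 25 cultures, 8, 11 and 16 were listed at 0 for the 3 genes. The untreated cultures split by plate, with the 10 cultures of plate 2 at 1.06 to 15.3 CPM for Cxcl9 and 2.33 to 28.1 CPM for Cxcl10, and those of plates 1, 3 and 4 at no more than 0.499 and 0.581 CPM. With plate or pool as a term every call of the 7 stimuli at 72 h was kept. The background share called higher was 2.85% under IFNa, 3.58% under IFNb, 4.29% under IFNg, 3.59% under LPS_hi and 4.40% under LPS_lo.

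**Figure D3:**
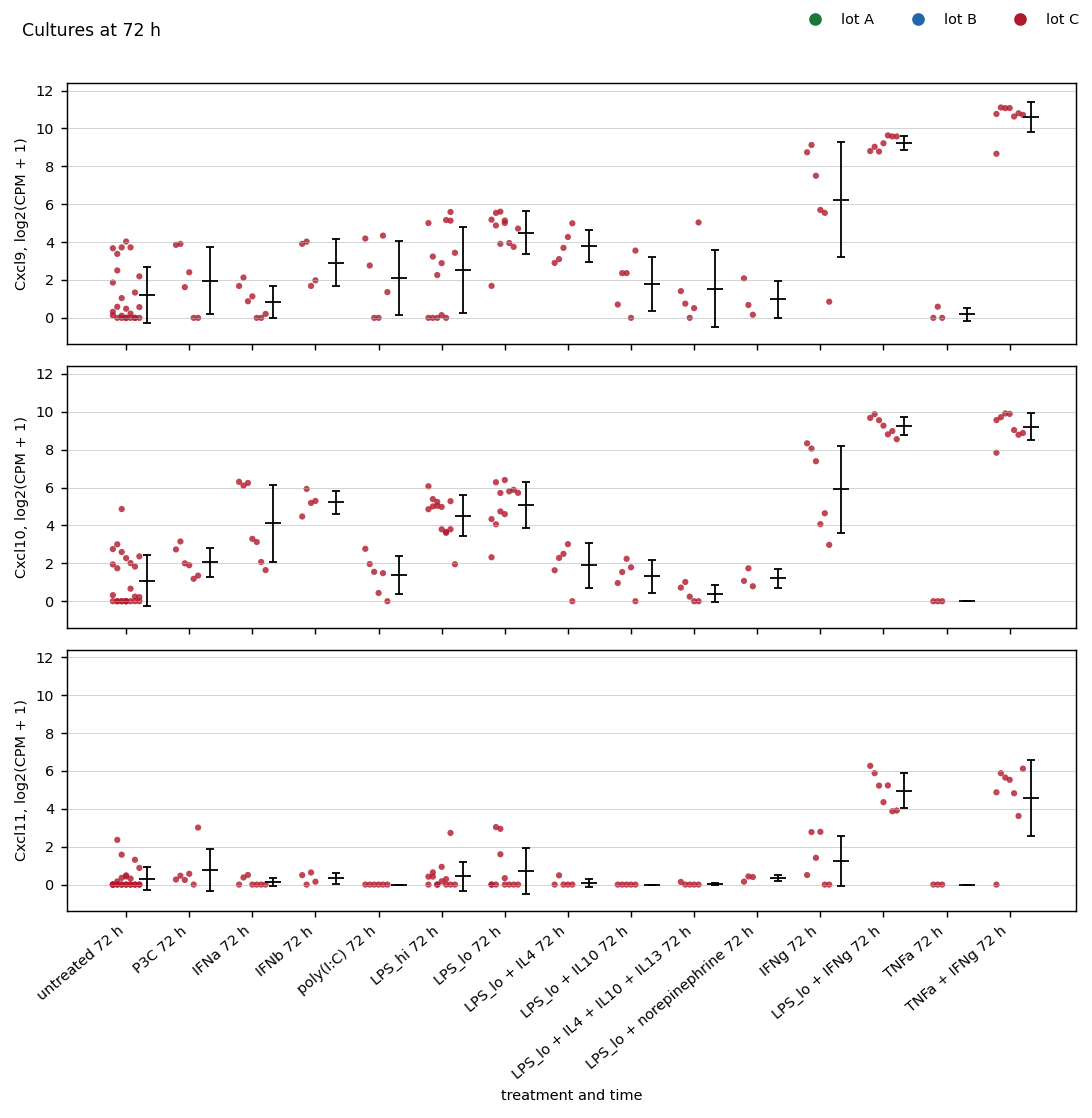
Each point is a culture at 72 h, all of lot C, plotted as log2(CPM + 1) of Cxcl9, Cxcl10 and Cxcl11 by condition, with a black tick and bar for the mean ± SD. The combinations of IFNg with LPS_lo or TNFa hold the highest values of all 3 genes, and the IL10-containing mixes with LPS_lo hold Cxcl10 at or below 3.72 CPM.

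IFNg at 72 h gave 427, 558 and 180 CPM of Cxcl9 in the 3 cultures of plate 2, and 50.9, 45.6 and 0.807 CPM in the 3 of plate 4. Cxcl10 lay at 322, 265 and 167 CPM on plate 2 and at 15.7, 24.0 and 6.86 CPM on plate 4. The plates did not overlap for either gene, and those of plate 4 all came from bottom-edge wells and 1 library pool. The log2 fold change over both was 5.05 for Cxcl9 (SE 0.50, adjusted p = 6.0e-20) and 4.84 for Cxcl10 (SE 0.53, adjusted p = 2.4e-16), and 4.80 and 4.47 with the plate as a term. Cxcl11 lay at 0 to 5.89 CPM and did not pass (0.93, adjusted p = 0.15).

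The type I interferons kept Cxcl10 but not Cxcl9 called at 72 h. Under IFNa the 7 cultures lay at 2.12 to 77.9 CPM for Cxcl10 (median 8.80), 8.80 to 77.9 CPM on plate 1 and 2.12 to 7.73 CPM on plate 3, and it rose by 3.04 (SE 0.50, adjusted p = 1.9e-07). Cxcl9 lay at 0 to 3.37 CPM and did not pass (-0.33, adjusted p = 0.78). Under IFNb the 4 cultures lay at 21.2 to 59.8 CPM for Cxcl10, and it rose by 4.15 (SE 0.63, adjusted p = 1.3e-08), or by 2.94 with the plate as a term (adjusted p = 1.9e-06), all 4 being of plate 2. Cxcl9 lay at 2.22 to 15.3 CPM (1.70, adjusted p = 0.074).

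Under LPS_lo the 11 cultures lay at 3.99 to 83.3 CPM for Cxcl10 (median 51.5) and 2.22 to 47.7 CPM for Cxcl9 (median 28.4). These overlapped the untreated range, chiefly that of plate 2, and the log2 fold changes were 4.00 (SE 0.42, adjusted p = 6.7e-18) and 3.29 (SE 0.40, adjusted p = 6.3e-14). Under LPS_hi the 13 cultures lay at 2.87 to 66.0 CPM for Cxcl10 (median 30.5) and 0 to 47.1 CPM for Cxcl9 (median 6.40), with changes of 3.44 (SE 0.40, adjusted p = 3.6e-15) and 1.33 (SE 0.38, adjusted p = 0.0033). The Cxcl9 call was lost with pseudocount 5 (0.83), on these groups alone (adjusted p = 0.13) and by the exact rank-sum test (Bonferroni p = 1.0). Cxcl9 was lower under LPS_hi than under LPS_lo (-1.96, adjusted p = 0.0013, background 4.43% called lower), but not with the pool as a term (-0.65, adjusted p = 0.51). Cxcl9 was listed at 0 in all 3 LPS_hi cultures of plate 4, while Cxcl10 there lay at 36.8 to 66.0 CPM. The 6 IC cultures lay at 0 to 19.3 CPM for Cxcl9 and 0 to 5.81 CPM for Cxcl10 and were all listed at 0 for Cxcl11, and the changes of Cxcl9 and Cxcl10 were 0.91 (adjusted p = 0.25) and 0.29 (adjusted p = 0.82), with 8.77% of genes called in either direction. The 6 P3C cultures lay at 0 to 14 CPM for Cxcl9 and 1.27 to 7.89 CPM for Cxcl10, changes of 0.77 (adjusted p = 0.46) and 0.98 (adjusted p = 0.31), with 7.38% of genes called.

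Directly compared at 72 h, IFNg again exceeded IFNa in Cxcl9 by 5.38 (adjusted p = 8.3e-15, background 2.77% called higher) and IFNb by 3.34 (adjusted p = 0.00023, background 2.13%, adjusted p = 0.37 on these groups alone). IC was lower than IFNb in Cxcl10 (-3.85, adjusted p = 0.00012, background 5.07% called lower), with no overlap. LPS_hi was lower than IFNg in Cxcl9 (-3.72, adjusted p = 2e-09, and 0.11 on these groups alone) and did not pass in Cxcl10 (-1.4, adjusted p = 0.089), with 6.75% of genes called lower. Cxcl10 was higher under LPS_hi than under IC (3.15, adjusted p = 4.7e-06, background 4.68% called higher) and than under P3C (2.46, adjusted p = 0.00097, background 1.14%), both in overlapping ranges. Against IFNb, LPS_hi passed for no member, with differences of -0.37 (95% interval -1.61 to 0.86), -0.71 (-2.02 to 0.61) and 0.11 (-0.99 to 1.21), where 11.8% of genes were called in either direction.

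The fold changes at 72 h were set against those at 24 h by an interaction term. Under LPS_hi all 3 members changed less at 72 h, by -3.21 for Cxcl9 (adjusted p = 3.1e-08), -2.31 for Cxcl10 (adjusted p = 0.0006) and -4.91 for Cxcl11 (adjusted p = 2.4e-23), while 5.11% of all genes were called in this test. Within lot C, the only lot used at both times, the differences were -4.04, -2.89 and -3.64 (adjusted p = 0.00056, 0.032 and 5.0e-07). Under IC they were -3.09, -3.20 and -5.64 (adjusted p = 0.00041, 0.00066 and 2e-16, background 4.23%). IFNb, IFNg, IC and P3C had no lot C cultures at 24 h, so for these time and lot cannot be told apart. Under LPS_lo only Cxcl11 was called (-2.66, adjusted p = 0.00017, background 3.14%), and it was called within lot C too (-2.93, adjusted p = 0.00022). Under IFNa Cxcl9 (-3.29, adjusted p = 0.00037, background 0.696%) and Cxcl11 (-2.32, adjusted p = 0.015) were called, but within lot C neither was (-3.20, adjusted p = 0.12, and -0.97, adjusted p = 0.94). Under IFNg only Cxcl11 was called (-2.33, adjusted p = 0.0047, background 3.73%). Cxcl10 under IFNg and IFNb moved by 0.91 (adjusted p = 0.55) and 0.30. In untreated cultures Cxcl9 and Cxcl10 were lower at 72 h than at 24 h (-1.25, adjusted p = 0.00017, and -1.99, adjusted p = 3.8e-09, with 6.23% of genes called lower). Within lot C the differences were -1.05 (adjusted p = 0.32) and -1.38 (adjusted p = 0.10), and with the pool as a term that of Cxcl9 turned to 0.41.

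Agents were also added to LPS. ATP, the ligand of purinergic receptors, lowered Cxcl9 at 4 h. The 6 LPS_hi + ATP cultures lay at 48.8, 23.5, 23, 11.9, 28.6 and 15.8 CPM against 141 to 562 CPM with LPS_hi alone, a change of -3.80 (SE 0.61, adjusted p = 4.2e-07, background 0.596% called lower), with no overlap in lot A or in lot B. Cxcl10 lay at 907 to 2621 CPM and Cxcl11 at 29.3 to 111 CPM, all under the lowest LPS_hi culture, but neither passed (-0.82, adjusted p = 0.81, and -1.56, adjusted p = 0.13). Cxcl11 was called with pseudocount 5, with the pool as a term and on these groups alone (adjusted p = 0.00023, 0.014 and 0.016). Norepinephrine lowered Cxcl9 as well. Its 8 cultures lay at 4.81 to 131 CPM (median 59.2), a change of -3.03 (SE 0.57, adjusted p = 4.5e-05, background 0.502%) with no overlap. Its lot A cultures lay at 90.0 to 131 CPM and its lot B cultures at 4.81 to 28.3 CPM. Cxcl10 at 1408 to 2617 CPM (-0.78, adjusted p = 0.82) and Cxcl11 at 62.1 to 129 CPM (-1.19, adjusted p = 0.32) did not pass, the latter called under the same 3 alternatives as for ATP (adjusted p = 0.0073, 0.046 and 0.022). Nicotine passed for no member (-1.39, adjusted p = 0.29, -0.30 and -0.39), though Cxcl9 was called with pseudocount 5 (adjusted p = 0.024) or the pool as a term (adjusted p = 0.022). Whether ATP or norepinephrine moved Cxcl9 more than Cxcl10 was not tested.

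**Figure D4:**
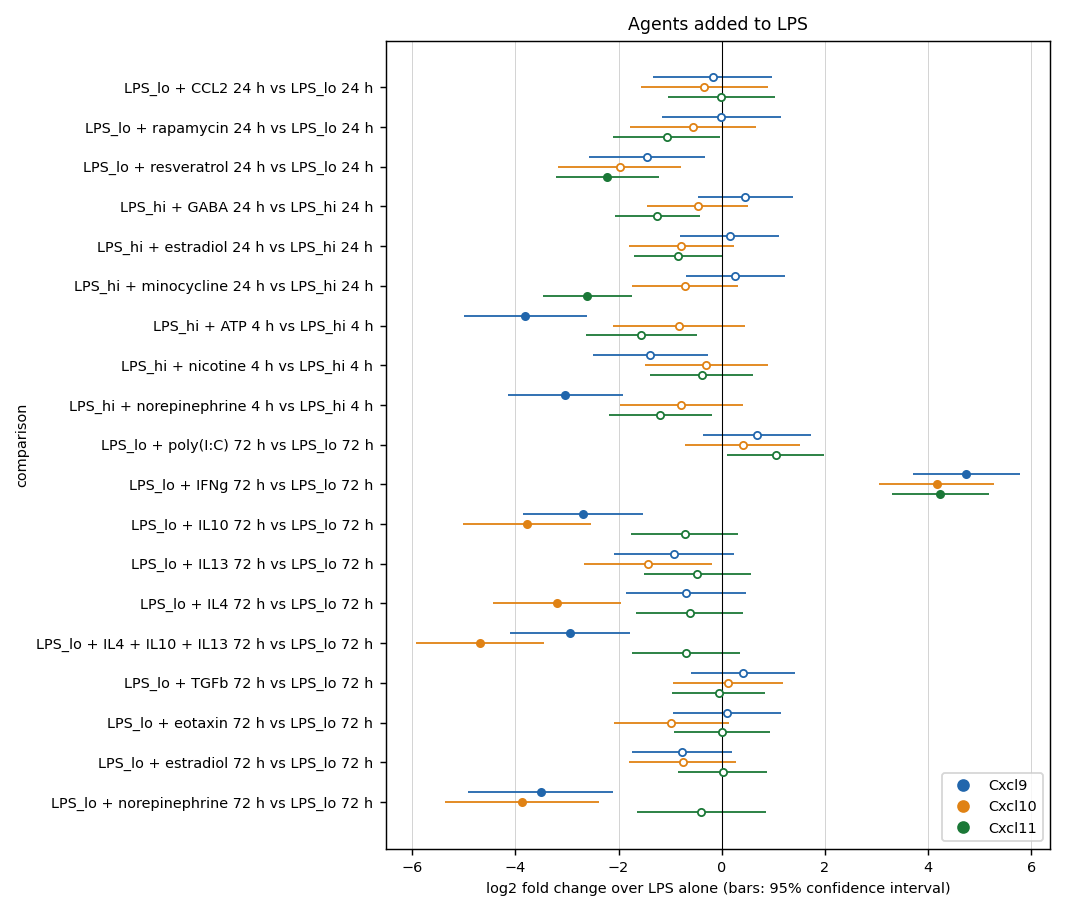
Log2 fold change of Cxcl9, Cxcl10 and Cxcl11 when an agent was added to LPS, against LPS alone at the same dose and time, with bars for the 95% confidence interval and filled points for called changes. IFNg added to LPS_lo is the only agent with filled points above 0 (4.74, 4.17 and 4.24), and the IL10-containing mixes reach the lowest Cxcl10 point (-4.68).

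At 24 h the calls were for Cxcl11. With minocycline, an antibiotic, added to LPS_hi the 7 cultures lay at 0.839 to 46.2 CPM (median 10.6), a change of -2.60 (adjusted p = 2.3e-05, background 0.142% called lower). All 7 lay inside or below the range of LPS_hi lots A and C. In lot A they lay at 34.7 to 46.2 CPM against 10.5 to 50.8 CPM, in lot C at 0.839 to 10.6 against 9.83 to 21.1 CPM, and the 11 LPS_hi cultures of lot B, at 70.7 CPM or more, had no minocycline counterpart. A fit on these groups alone gave an adjusted p of 0.20. With resveratrol, a plant polyphenol, added to LPS_lo the 8 cultures lay at 0.145 to 46.9 CPM for Cxcl11 (median 1.80), a change of -2.22 (adjusted p = 0.0044, background 0.378% called lower, adjusted p = 0.31 on these groups alone). In lot A they lay at 2.12 to 46.9 CPM against 22.4 to 52.6 CPM and in lot C at 0.145 to 1.48 against 1.22 to 26.1 CPM. For Cxcl10, 7 of the 8 cultures lay under the lowest LPS_lo culture, at 30.5 to 67.8 CPM, and the change of -1.98 missed the threshold (adjusted p = 0.082). It passed under 5 of 7 alternatives, namely pseudocount 5, the plate or the pool as a term, median-centred values and these groups alone (adjusted p = 0.0016, 0.0036, 0.048, 0.047 and 0.0048). GABA and estradiol with LPS_hi, and CCL2 and rapamycin with LPS_lo, passed for no member, where 0.360%, 0.413%, 0.0295% and 0.171% of all genes were called. Cxcl10 with estradiol was called with the plate or the pool as a term (adjusted p = 0.011 and 0.0088).

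At 72 h IFNg added to LPS_lo gave the widest rise. The 7 cultures lay at 439 to 793 CPM for Cxcl9 (median 594), 374 to 937 CPM for Cxcl10 (median 615) and 13.6 to 76.0 CPM for Cxcl11 (median 36.4), none overlapping LPS_lo. The log2 fold changes against LPS_lo were 4.74 (adjusted p = 3.3e-15), 4.17 (adjusted p = 2.2e-10) and 4.24 (adjusted p = 3e-15), with 1.19% of genes called higher. Against IFNg alone they were 2.99 (adjusted p = 0.00012), 3.33 (adjusted p = 4.6e-05) and 3.72 (adjusted p = 9.3e-09), with 4.61% called higher, and on these groups alone the first 2 calls were lost (adjusted p = 0.31 and 0.079). The plates differed in that comparison. On plate 2 Cxcl9 lay at 439 to 594 CPM against 180 to 558 CPM, overlapping, and on plate 4 at 763 to 793 against 0.807 to 50.9 CPM. Cxcl10 did not overlap on either plate, at 615 to 937 against 167 to 322 CPM and at 374 to 504 against 6.86 to 24.0 CPM. The plate 4 cultures of the mix came from middle wells and another pool than those of IFNg alone, so treatment and pool cannot be told apart there.

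TNFa with IFNg held the highest Cxcl9 of all conditions. The 8 cultures lay at 404 to 2201 CPM for Cxcl9 (median 1759), 228 to 961 CPM for Cxcl10 (median 638) and 0 to 68.5 CPM for Cxcl11 (median 36.7). Against IFNg alone they rose by 4.36 (adjusted p = 3.3e-10), 3.29 (adjusted p = 3.6e-05) and 3.32 (adjusted p = 2.1e-07), with 3.82% of genes called higher, while fits on these groups alone gave adjusted p of 0.078, 0.09 and 0.19. On plate 2 Cxcl9 lay at 1736 to 2201 CPM against 180 to 558 CPM. On plate 4 the only culture of the mix in the pool of IFNg alone was the lowest, at 404 CPM against 50.9, 45.6 and 0.807 CPM. TNFa alone had 3 cultures, listed at 0, 0.505 and 0 CPM for Cxcl9 and at 0 for Cxcl10 and Cxcl11. The mix exceeded them in Cxcl9 by 10.41 on the log2 scale (adjusted p = 5.2e-36, background 15.2% called higher). These 3 cultures had 27.7% of all genes called against untreated cultures.

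IL10, a cytokine that restrains macrophage activation, lowered both genes that LPS_lo had raised. The 5 LPS_lo + IL10 cultures lay at 0.943, 1.91, 3.72, 2.45 and 0 CPM for Cxcl10, all under the LPS_lo range, a change of -3.77 (SE 0.63, adjusted p = 5.5e-06, background 1.91% called lower). Cxcl9 lay at 0.629, 4.13, 4.15, 0 and 10.7 CPM, overlapping LPS_lo, and fell by 2.69 (adjusted p = 0.0016). Without replicate 4 it was not called (-2.24, adjusted p = 0.063), nor with the pool as a term (-1.31, adjusted p = 0.28). IL4, which drives the alternative state of macrophages, lowered Cxcl10, with 2.10, 3.88, 4.65, 7.06 and 0 CPM (-3.19, adjusted p = 0.00011, background 1.07% called lower), but was not called for Cxcl9 (-0.70, adjusted p = 0.79). IL13 was called for neither (-0.92 and -1.43). With IL4, IL10 and IL13 together Cxcl10 lay at 0.646, 1.02, 0.182, 0 and 0 CPM (-4.68, adjusted p = 1.1e-10, background 3.18%), and Cxcl9 at 1.66, 0.681, 0, 0.426 and 31.8 CPM (-2.94, adjusted p = 6.9e-05). These 5 fell under the LPS_lo range for Cxcl10 and 4 of 5 did for Cxcl9.

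Norepinephrine with LPS_lo at 72 h, in 3 cultures of plate 1, gave 3.24, 0.601 and 0.121 CPM of Cxcl9 (-3.51, adjusted p = 0.001) and 1.10, 2.33 and 0.728 CPM of Cxcl10 (-3.88, adjusted p = 0.00049, background 0.354% called lower). The 4 LPS_lo cultures of plate 1 lay at 2.22 to 25.2 and 3.99 to 57.9 CPM. The Cxcl9 call was lost without replicate 3 (-3.10, adjusted p = 0.065) and with the pool as a term (-2.01, adjusted p = 0.21). Adding IC to LPS_lo called no member (0.68, 0.41 and 1.04, with 0.0354% of genes called), while against IC alone the mix was higher by 3.06 in Cxcl9 and 4.12 in Cxcl10 with no overlap (adjusted p = 6.1e-05 and 1e-07, background 5.09%), the former with an adjusted p of 0.076 on these groups alone. TGFb, eotaxin and estradiol with LPS_lo called no member. IFNb added to TNFa + P3C + PGE2 raised Cxcl10 by 2.45 (adjusted p = 0.0054), from 0 to 5.81 CPM (median 2.03) to 0.758 to 55.1 CPM (median 15.7), in ranges that overlapped, and the call was lost on these groups alone (adjusted p = 0.26).

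Over the 97 conditions with at least 2 cultures, ordered by mean log2(CPM + 1), Cxcl9 stood highest in TNFa + IFNg at 72 h, then IFNg at 24 h, LPS_lo + IFNg at 72 h and LPS_hi at 4 h, with means of 10.60 ± 0.81, 9.42 ± 0.49, 9.23 ± 0.37 and 8.39 ± 0.68 (SD). The middle pair lay within their spread of each other. Cxcl10 stood highest in LPS_hi at 4 h (11.73 ± 0.19), followed by the 3 other LPS_hi conditions at 4 h (10.91 to 11.43) and by LPS_lo + IFNg and TNFa + IFNg at 72 h (9.24 ± 0.49 and 9.20 ± 0.71). Cxcl11 stood highest in LPS_hi at 4 h (7.62 ± 0.45) and LPS_hi + nicotine at 4 h (7.23 ± 0.48), then in IC at 24 h (6.53 ± 1.95), which lay within the spread of both. Untreated cultures of 24 h stood at place 43 for Cxcl9, 37 for Cxcl10 and 36 for Cxcl11.

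Outside the main stimuli, 61 conditions without LPS were tested against untreated cultures. Cxcl9 was called higher in 4 and lower in 1, Cxcl10 higher in 8 and lower in 2, and Cxcl11 higher in 1, which was TNFa + IFNg. The falls were Cxcl9 under Valproic Acid at 24 h (-2.01, adjusted p = 0.0015) and Cxcl10 under nicotine (-1.66) and s100B (-1.83) at 24 h. The shares of all genes called lower there were 3.17%, 0.419% and 0.277%. Most nicotine and s100B cultures came from plates of lot B whose untreated cultures lay at 0 to 5.32 CPM for Cxcl10. These 2 falls were not tested within plates. Of the 8 rises of Cxcl10, 4 were at 4 h (ATP 1.90, CCL2 2.12, CCL7 2.62 and norepinephrine 1.47), where the reference was untreated cultures of 24 h. The others were GMCSF at 24 h (1.46) and TNFa + IFNg, TNFa + P3C and TNFa + P3C + PGE2 + IFNb at 72 h (8.13, 1.62 and 2.65). The share of all genes called in these 61 comparisons reached from 0.00% under CCL7 at 24 h to 27.7% under TNFa at 72 h. Of 19 further conditions that held LPS, 16 were called higher for Cxcl9, 15 for Cxcl10 and 10 for Cxcl11, where 1.13% to 5.58% of all genes were called higher.

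The receptors and signal carriers upstream were read from lists of named pathway genes. Of 8 interferon gamma receptor and signalling genes, 4 rose under IFNg at 24 h and none fell, with a list median of 1.39 on the log2 scale against -0.04 for all genes, of which 4.40% were called higher. Among them Irf1, an interferon-induced transcription factor, rose by 4.40 (460 against 23 CPM), Irf8 by 2.17 and Socs1, the feedback inhibitor of JAK kinases, by 6.66. LPS_hi at 4 h raised 5 and lowered 1, with Irf1 at 975 CPM (5.50), and at 24 h it raised 4 and lowered 2, with Irf8 turned from 2.15 at 4 h to -1.30. The list medians were 1.90 and 1.02, and of all genes 5.45% were called higher and 23.8% lower at 4 h, and 5.25% and 10.9% at 24 h. Under IFNa at 24 h 4 of these 8 genes rose, with 3 each under IFNb and IC, 5 under LPS_lo and 2 under P3C. Under LPS_lo and P3C 1 fell each. The list medians there were 0.69, 0.60, 0.55, 1.17 and -0.20. Of all genes 3.22%, 3.46%, 2.89%, 4.15% and 3.22% were called higher, and 10.9% and 16.9% lower under LPS_lo and P3C. Of 7 type I interferon receptor and signalling genes, 5 rose under IFNa, 4 rose and 1 fell under IFNb (Ifnar1, -1.03), and 3 rose under IFNg, with list medians of 1.49, 1.44 and 0.56. Of all genes 3.22%, 3.46% and 4.40% were called higher, and 3.81% lower under IFNb. Irf7, which amplifies type I interferon, rose by 5.07 under IFNb and 2.59 under IFNg, and Usp18, an inhibitor of the type I receptor, by 4.81 and 2.48.

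Of the 6 NF-kB subunits and inhibitors, 6 rose under LPS_hi at 4 h (list median 3.09 against -0.39 for all genes), 4 under LPS_hi at 24 h, 3 under LPS_lo and 2 under P3C, where 5.45%, 5.25%, 4.15% and 3.22% of all genes were called higher. None rose under IFNa, IFNb, IFNg or IC, and Tnfaip3, an inhibitor of the pathway, fell under IFNb (-1.54, adjusted p = 0.0018). Of the 10 genes of LPS and double-stranded RNA sensing (sensors and their signal carriers), 3 rose under IFNa, IFNb, IC and LPS_lo each, 2 under IFNg and 4 under LPS_hi at 24 h (list medians 0.40, 0.50, 0.54, 0.21, 0.17 and 0.59), where 2.89% (IC) to 5.25% (LPS_hi) of all genes were called higher. Under P3C at 24 h 1 rose and 2 fell (list median -0.41), where 3.22% of all genes were called higher and 16.9% lower. After 4 h of LPS_hi 4 rose and 2 fell, with Ifih1, which encodes MDA5, at 5.90. Of all genes 5.45% were called higher and 23.8% lower there. Ifnb1, the gene of interferon beta, averaged 20.4 CPM after 4 h of LPS_hi against 0.276 CPM in untreated cultures (4.11, adjusted p = 3.7e-146). It was not called under LPS_hi at 24 h (0.03). Over all stimuli its change was -0.23 to 0.36 at 24 h and 0 at 72 h. The fit used 1 spread for all conditions, including these, so the p-value says little of the spread at 4 h. Which cultures carried Ifnb1 past the filter was not checked. Ifng was too low to be tested. Cxcr3 itself averaged 7.73 CPM in untreated cultures of 24 h and was called lower under LPS_hi (-2.12), LPS_lo (-2.60), P3C (-2.07), IC (-1.62) and IFNb (-1.35), but not under IFNg (-1.13, adjusted p = 0.097) or IFNa (-0.70). The shares of all genes called lower were 10.9%, 10.9%, 16.9%, 6.10% and 3.81% in the 5 comparisons with a call.

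Of 4 neighbours on the chromosome (Art3, Naaa, Sdad1 and Nup54), none was called under IFNa, IFNb, IC, LPS_lo or P3C at 24 h. Of the 4, 1 rose under LPS_hi at 24 h, and 2 each rose under IFNg and after 4 h of LPS_hi. The shares of all genes called higher in these 3 comparisons were 5.25%, 4.40% and 5.45%. Art3, which covers Cxcl10 and Cxcl11 on the other strand, averaged 9.30 CPM after 4 h of LPS_hi against 0.121 CPM untreated (2.82, adjusted p = 3.2e-27). The part of antisense reads in this was not tested. Naaa, which lies beyond Sdad1 and encodes a lipid amidase, averaged 106 CPM under IFNg at 24 h against 5.38 CPM untreated (4.13, adjusted p = 2.1e-20), and rose by 1.46 under LPS_hi at 24 h. Sdad1 rose by 1.4 under IFNg (adjusted p = 0.01) and Nup54 by 1.4 after 4 h of LPS_hi (adjusted p = 0.0013).

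The genes whose condition means followed each member most closely over the 97 conditions were picked by Pearson's r. For Cxcl9 they were AW112010 (0.92), Gbp2 (0.92), Slco3a1 (0.91), Timd4 (0.90) and Gbp5 (0.90), for Cxcl10 Gbp5 (0.96), AW112010 (0.93), Cd40 (0.91), Il27 (0.90) and Gbp3 (0.89), and for Cxcl11 Il27 (0.91), Gbp5 (0.89), Vcam1 (0.86), Cd40 (0.85) and Gbp2b (0.84). Gbp genes encode interferon-inducible GTPases and Il27 a cytokine subunit. Among the members r was 0.88 for Cxcl9 with Cxcl10, 0.80 for Cxcl9 with Cxcl11 and 0.88 for Cxcl10 with Cxcl11. Conditions share plates, lots and pools, so these values describe the panel only.

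In mice given LPS all 3 members rose. Cxcl10 lay at 21.8, 17.6, 22.8 and 22.7 CPM in the PBS mice and at 709, 958, 655 and 704 CPM in the LPS mice. There was no overlap, and the log2 fold change was 5.08 (SE 0.15, adjusted p = 1.4e-11), with 5.29% of 9012 genes called higher. Cxcl9 lay at 1.77, 3.61, 1.58 and 1.59 CPM under PBS and 23.8, 26.2, 20.6 and 28.3 CPM under LPS, a change of 3.07 (SE 0.26, adjusted p = 7.4e-07), again with no overlap. Cxcl11 lay at 1.46, 0.451, 1.97 and 0.890 CPM and at 16.3, 17, 22.1 and 19.5 CPM, a change of 3.21 (SE 0.30, adjusted p = 1.7e-06). Cxcl9 and Cxcl11 passed the filter on low values only through the 4 LPS mice, with 0 PBS mice above 5 CPM. Of the NF-kB list 5 of 6 rose, with Nfkbia, which encodes IkB alpha, at 3.16 and Tnfaip3 at 3.38, and of the interferon gamma list 2 of 8, Irf1 (2.60) and Socs1 (2.17). Art3 averaged 8.6 CPM against 0.55 CPM (2.59, adjusted p = 0.00011), and it too passed the filter on low values only through the LPS mice. Summed markers of monocytes and neutrophils lay at 78.6 to 156 CPM in PBS mice and 159 to 295 CPM in LPS mice, and those of T and NK cells at 2.16 to 10.7 and 5.53 to 16.2 CPM. Their part in the result was not tested.

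**Figure D5:**
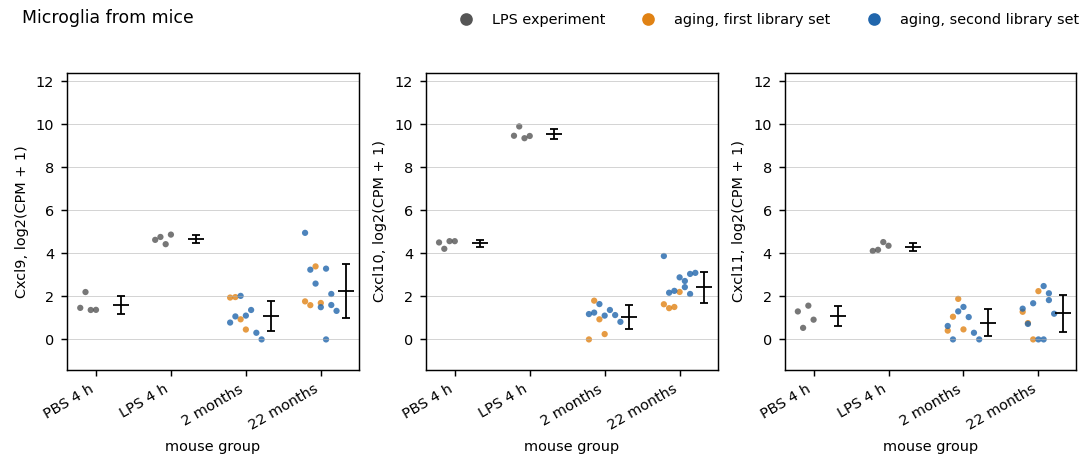
Each point is a mouse, plotted as log2(CPM + 1) of Cxcl9, Cxcl10 and Cxcl11 in the LPS experiment and the aging experiment, with a black tick and bar for the mean ± SD. The LPS mice lie above every PBS mouse for all 3 genes, and 10 of 13 aged mice lie above the highest young mouse for Cxcl10.

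In the aging experiment the members were too low to pass the filter (more than 5 CPM in at least 11 of 24 mice), with Cxcl9 and Cxcl10 above 5 CPM in 5 mice each and Cxcl11 in 0. Without the filter, over 18581 genes, Cxcl10 lay at 0 to 2.49 CPM in young mice (median 1.19) and 1.74 to 13.7 CPM in aged mice (median 3.79), with 10 of 13 aged mice above every young mouse. It rose by 1.37 (SE 0.26, adjusted p = 0.0042), where 1.32% of genes were called higher. The libraries came in sets. In the first, with 4 mice per age, the change was 0.96 (adjusted p = 0.65), and in the second, with 9 aged and 7 young mice, it was 1.52 (adjusted p = 0.0017) with no overlap. Cxcl9 lay at 0 to 3.07 CPM in young and 0 to 30.1 CPM in aged mice (1.15, adjusted p = 0.21), and Cxcl11 at 0 to 2.70 and 0 to 4.59 CPM (0.43, adjusted p = 0.73). Summed T and NK cell markers lay at 2.63 to 27.2 CPM in young mice (median 7.04) and 11.7 to 118 CPM in aged mice (median 34.9), and those of monocytes and neutrophils at 144 to 1053 (median 509) and 314 to 3025 CPM (median 1117). Their part in the change of Cxcl10 was not tested.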

How the data were processed

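RNA from 784 cultures and 32 mice was copied with barcoded primers, amplified by T7 transcription and made into libraries with a QuantSeq kit, which reads 3′ ends. The authors assigned reads to transcripts with Salmon (version 0.7.1 in the submitters' processing notes), summed them per gene and deposited them as CPM, scaled by the total of mapped reads, which the study calls TPM. The notes name the build mm8, while the study's methods name an Ensembl release of GRCm38, whose positions are given here. CPM are shares, and large gains of abundant transcripts depress the remaining values.

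Samples were grouped by their labels, also where the header of the mouse data named another treatment or age. One culture with conflicting LPS dose labels entered no comparison. Lot, plate and pool came from the table header (lots Feb15, March15 and May16 are called A, B and C, and the 72 h plates 1 to 4). Columns of samples not listed in the labels numbered 0. Depth, 1.00 to 38.2 M reads in cultures and 2.36 to 7.78 M in mice, was inferred from the step between low values.

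Values were analysed as log2(CPM + 1), pseudocount 1, for genes above 5 CPM in at least 4 cultures (4 of the 8 LPS mice, 11 of the 24 aging mice). All culture conditions shared 1 limma fit (limma 3.58.1 with eBayes trend, R 4.3.3, and the package data.table, version 1.17.8), with Benjamini-Hochberg adjustment over all genes, calls at 0.05 and a log2 fold change of 1 (no minimum for aging). The steps were tested on simulated data. Ratios, exact tests and plots were made in Python 3.11.15 (matplotlib 3.10.9, pandas 2.3.3, scipy 1.17.1, numpy 2.4.6).

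The members, gene lists and comparisons were chosen with earlier results of these data known. Named genes were the 3 members, the listed pathway genes and, for each member, the 5 genes with the highest Pearson's r of condition means over 97 conditions. Alternatives were pseudocount 5, no filter, no minimum fold, plate or pool as a term, fits on the groups compared alone, median-centred values, exact 2-sided rank-sum tests with Bonferroni correction, each replicate left out in small groups, IC cultures that resembled another stimulus left out, CCL2 and CCL7 cultures as the 4 h reference and library sets of mice apart. Fits within lots and without IC replicate 5 were added after seeing the data. One gene of the pathway lists is not reported here.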

Additional observations from a re-analysis of the deposited data

Results flagged for a closer look

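Single cultures or mice stood far from the others of their group in 17 of 112 tests of small groups. The cut-off is set to flag about 5% for normally distributed values. CPM are skewed, and a group with a single value above 0 is always flagged, so 5% is not the rate to be set against this count. For Cxcl9 these were 97.8 CPM in LPS_lo + IC (next 33.5), 31.8 in LPS_lo + IL4 + IL10 + IL13 (next 1.66), 57.0 in LPS_lo + eotaxin (next 28.8) and the low 404 in TNFa + IFNg (next 1582), all at 72 h, and 3.61 in a PBS mouse (next 1.77). For Cxcl10 they were 159 CPM in LPS_lo + resveratrol at 24 h (next 67.8), 55.1 in TNFa + P3C + PGE2 + IFNb (next 22.7) and 8.15 in TNFa + PGE2 (next 3.25). For Cxcl11 they were 46.9 CPM in the same resveratrol culture (next 12), and at 72 h 1.38 in LPS_lo + IL13, 0.101 in LPS_lo + IL4 + IL10 + IL13 and 0.402 in LPS_lo + IL4 (the others of each at 0), 4.94 in LPS_lo + eotaxin (next 1.41), 4.56 in LPS_lo + estradiol (next 1.87), 7.04 in P3C (next 0.483), 9.84 in TNFa + P3C + PGE2 (next 2.10) and 9.42 in TNFa + PGE2 (next 1.68).

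The response to a stimulus differed between 72 and 24 h by the interaction term for Cxcl9 under IFNa (-3.29), IC (-3.09) and LPS_hi (-3.21), for Cxcl10 under IC (-3.20) and LPS_hi (-2.31), and for Cxcl11 under IFNa (-2.32), IFNg (-2.33), IC (-5.64), LPS_hi (-4.91) and LPS_lo (-2.66). Under P3C at 24 h Cxcl10 moved by -2.60 in lot A and by 2.12 in lot B, and the difference between the lots was not tested. Untreated Cxcl10 split by plate within both lots, and with the plate as a term the change was 0.20 (adjusted p = 0.83).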

How the results depend on the processing

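No paired analysis was possible because the labels give no replicate numbers that link cultures or mice across groups. Of the values recomputed for stimuli and mice against their controls, 418 kept direction and side of the threshold and 14 lost their call. With pseudocount 5 Cxcl11 under IFNb at 24 h came to 0.94 and Cxcl9 under LPS_hi at 72 h to 0.83. On those groups alone Cxcl9 under LPS_hi at 72 h stayed at 1.33 with an adjusted p of 0.13. Within the first library set Cxcl10 in aged mice came to 0.96. The exact rank-sum test, Bonferroni-corrected, leaves fold changes as they were and lost these calls: Cxcl11 under IFNa (2.13), IFNb (1.85) and LPS_lo (3.07), Cxcl9 (4.01) and Cxcl10 (3.49) under IC, all at 24 h, Cxcl10 under IFNa (3.04), Cxcl9 (5.05) and Cxcl10 (4.84) under IFNg and Cxcl9 under LPS_hi (1.33) at 72 h, and Cxcl10 in aged mice (1.37). That test cannot pass for 4 mice against 4 or for the 4 IFNb cultures of 72 h, and its count over all genes was not run. Reversals were Cxcl9 in untreated cultures between 72 and 24 h with the pool as a term (0.41) and Cxcl10 under P3C at 24 h within lot B (2.12). In lot A the latter was -2.60, Cxcl11 under IFNb 1.08, and in lot C Cxcl11 under IFNa 0.78. With the plate as a term Cxcl10 under P3C at 24 h came to 0.20. The cause of these changes was not tested.

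Leaving out each replicate gave 1.33 to 2.11 for Cxcl9, 3.91 to 4.40 for Cxcl10 and -0.10 to 0.11 for Cxcl11 under IFNb at 72 h. In LPS mice it gave 2.99 to 3.27, 4.96 to 5.15 and 3.03 to 3.37. The median log2 fold change over all genes moved from -0.39 to -0.03 for LPS_hi at 4 h and from -0.28 to -0.10 for P3C at 24 h on median-centred values, which changed no call against untreated cultures. Of the other values, 1372 kept their call, 60 lost it and 39 gained it. Losses came most often with fits on the groups compared alone (20) and gains with pseudocount 5 (13) or the pool as a term (12).

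Counts of all genes called moved by over 1.5 times in most comparisons (the range over alternatives in parentheses). At 24 h they were 1878 for IFNa (555 to 2534), 1232 for IFNb (746 to 1822), 1365 for IFNg (912 to 1917), 1522 for IC (1043 to 3202), 2737 for LPS_hi (1313 to 5070), 2547 for LPS_lo (1196 to 3140) and 3408 for P3C (1948 to 6065), and 4960 for LPS_hi at 4 h (2788 to 6890). At 72 h they were 1266 for IFNa (851 to 1627), 2171 for IFNg (1273 to 2696), 1486 for IC (796 to 1875), 2705 for LPS_hi (1325 to 4025) and 1372 for LPS_lo (830 to 1935). They were 297 for aging (7 to 916), 1241 for untreated cultures by time (139 to 3575), 866 for the time difference of LPS_hi (157 to 1176), 532 for that of LPS_lo (230 to 586), 118 for that of IFNa (22 to 176), and 110 and 262 for IFNa against IFNb at 24 h (20 to 129) and 72 h (7 to 316). At the lowest depth of 1.00 M reads 1 CPM is about 1 read, so differences near 0 CPM were not detectable there.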
